A study of Homo sapiens with 519 samples.

Results

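GDF15, INHBE, FGF19, FGF21, ADM2 and STC2 are 6 genes whose products are secreted and whose transcripts are known to rise in stressed cells. They were picked by symbol for their large rises under isoflavones in these same data, so their changes against controls under isoflavones are given here as descriptions, with no test. All 6 were listed in each of the 4 deposited count tables, the largest of which holds 57728 genes. The other contrasts were tested. The choice did not use these contrasts themselves, but it did use their control wells or their isoflavone libraries. Their tests are therefore not independent of the choice.

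The samples were 519 libraries of SK-N-BE(2), an established neuroblastoma cell line that carries an amplified MYCN gene and was used here without any change to its genome. All treated wells received compound in DMSO at 0.1%, per the labels, and the controls were DMSO wells except where named otherwise. One set of 39 TruSeq libraries (polyadenylated RNA, 3 libraries per group) held isopomiferin and pomiferin at 3 and 10 uM for 3 h and 6 h, a treatment labelled Null at 10 uM for 3 h and 6 h, DMSO at both times, and a Mock group whose time labels conflict. The other 3 sets were made by PLATE-seq, a method that counts the 3′ ends of transcripts from pooled, barcoded wells. The third PLATE-seq experiment (96 libraries) held 29 treatments for 24 h in 3 wells each, among them pomiferin, isopomiferin, osajin and relatives, against 9 DMSO wells. The second held 15 compounds at 2 doses for 6 h and 24 h in 3 wells each, against 6 wells labelled Control per time. The first held 90 compounds for 24 h on 2 plates, against 8 DMSO wells, with 4 further wells labelled as having no DMSO. Doses are printed as the labels give them: mM in the second experiment, and mostly no unit in the third and the first.

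GDF15 is a distant member of the TGF-beta family that acts on the receptor GFRAL and its partner RET in the hindbrain to lower food intake. INHBE encodes the beta E subunit of the activins and inhibins, a TGF-beta family ligand best known from liver. FGF19 and FGF21 are endocrine fibroblast growth factors that need a klotho co-receptor: FGF19 is released by the ileum and limits bile acid synthesis, and FGF21 is released by the liver during fasting or amino acid shortage. ADM2 (intermedin) is a peptide of the calcitonin family that acts through CALCRL with RAMP proteins. STC2 is a secreted glycoprotein that inhibits the protease PAPP-A. In many human cells the integrated stress response, in which phosphorylation of eIF2 alpha raises translation of the transcription factor ATF4, induces genes of this kind, and C/EBP-ATF response elements are the DNA sites through which ATF4 acts.

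Library totals ran between 17209300 and 33280800 reads in the TruSeq set, 901071 and 1814100 in the second experiment at 6 h, 608491 and 1901420 at 24 h, 706208 and 5263250 in the third, and 38670 and 3958910 in the first, where 4 libraries of 3 treatments were under 500000 reads. Levels are given in CPM, the count of a gene over the scaled size of its library, and log2 changes come from edgeR fits with their standard errors (SE). A member was called where edgeR's quasi-likelihood test gave a Benjamini-Hochberg adjusted p under 0.05 over all genes tested in that contrast. Nothing in the labels says that replicate wells came from separate cultures, so p-values measure the spread between wells. The cell label was checked on 8 adrenergic neuroblast markers: all 8 averaged over 10 CPM in the TruSeq set and 7 of 8 in each PLATE-seq set, and of 12 markers of other cell types COL1A1 alone did. COL1A1 is high: its median was 150 CPM in the TruSeq set, 989 and 1150 CPM in the second experiment at 6 h and 24 h, 195 CPM in the third and 446 CPM in the first. The other 11 markers together had medians of 2.06 to 8.38 CPM, and the 8 neuroblast markers together had 5926, 1445, 1298, 726.5 and 500.6 CPM in the same order of sets. Whether COL1A1 has a part in any result was not tested. In bulk libraries such as these, more RNA per cell and more cells with the RNA cannot be told apart.

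On the GRCh38.p14 assembly of RefSeq, GDF15 lies at chr19:18386158-18389176, INHBE at chr12:57455307-57458025, FGF19 at chr11:69698238-69704022, FGF21 at chr19:48755524-48758330, ADM2 at chr22:50481543-50486437 and STC2 at chr5:173314723-173328414. RefSeq promoter windows, 250 bases before to 50 after the start of the gene, were at hand for GDF15, FGF21, ADM2 and STC2. They were searched on both strands for TGATGNAA, the core of the C/EBP-ATF response element, for TGACGTGG, an element of the XBP1 and ATF6 type, and for TGACGTCA, the cyclic AMP response element; no 2 of these can match the same 8 bases. The only match in the 4 windows was TGATGCAA on the strand opposite FGF21, at chr19:48755470-48755477, with its first base 54 bases before the start of FGF21 (−54). Of 35116 promoter windows of the same length, 3.62% hold TGATGNAA, 0.729% hold TGACGTGG and 1.85% hold TGACGTCA. The FGF21 window is shown with this match in capitals, as its reverse complement TTGCATCA on the gene's strand, beside the GDF15 window, which belongs to the member with the largest log2 change in the TruSeq set among those with reads in DMSO, and has none of the 3 motifs. The windows are chr19:48755274-48755573 (plus strand) and chr19:18385908-18386207 (plus strand).
FGF21: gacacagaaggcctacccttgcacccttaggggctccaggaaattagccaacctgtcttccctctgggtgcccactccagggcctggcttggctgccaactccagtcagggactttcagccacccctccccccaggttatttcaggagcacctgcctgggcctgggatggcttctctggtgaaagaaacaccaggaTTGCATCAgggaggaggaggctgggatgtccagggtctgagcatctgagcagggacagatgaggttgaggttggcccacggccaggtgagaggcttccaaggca
GDF15: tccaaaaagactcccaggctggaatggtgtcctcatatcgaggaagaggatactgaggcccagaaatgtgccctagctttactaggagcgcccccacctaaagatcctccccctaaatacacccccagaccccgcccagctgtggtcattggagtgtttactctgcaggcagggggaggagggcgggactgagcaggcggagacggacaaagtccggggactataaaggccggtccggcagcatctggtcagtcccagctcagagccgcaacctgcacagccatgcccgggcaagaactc
A match is a stretch of letters, not a tested site, and a window without one says nothing of sites elsewhere in the gene.

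The TruSeq set gave the earliest time points. GDF15 stood at 20.7, 26.3 and 26.4 CPM after isopomiferin at 10 uM for 6 h, against 0.392, 0.480 and 0.738 CPM in DMSO at 6 h, a log2 change of 5.53 ± 0.20 (SE). After pomiferin at 10 uM for 6 h it stood at 15.4, 15.5 and 16.4 CPM, a log2 change of 4.88 ± 0.23 against the same DMSO libraries. Neither isoflavone group overlapped DMSO, and the isopomiferin libraries all lay above the pomiferin libraries. At 3 uM and 6 h GDF15 had 4.30, 4.76 and 5.55 CPM with isopomiferin, and 0.973, 1.06 and 1.07 CPM with pomiferin, which lies close to DMSO. At 3 h the change was smaller: 1.87, 2.30 and 3.34 CPM with 10 uM isopomiferin, against 0.286, 0.632 and 0.732 CPM in DMSO at 3 h.

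INHBE, the other TGF-beta family ligand, was little detected in DMSO at 6 h, with 0.123, 0.285 and 0.440 CPM from 22 reads over 3 libraries. With 10 uM isopomiferin for 6 h it had 9.18, 10.6 and 11.7 CPM, and with 10 uM pomiferin 9.32, 9.84 and 12.5 CPM. The 2 compounds were thus side by side at 10 uM, with log2 changes of 5.20 ± 0.30 and 5.19 ± 0.29 against DMSO. At 3 uM they were apart, as for GDF15: 3.15, 3.43 and 3.92 CPM with isopomiferin, and 0.276, 0.506 and 0.895 CPM with pomiferin, a group that overlapped DMSO.

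The 2 fibroblast growth factors stayed low in the TruSeq set. FGF19 had 0.613, 0.623 and 0.628 CPM after 10 uM isopomiferin for 6 h, against 0.120, 0.164 and 0.285 CPM in DMSO, a log2 change of 1.66 ± 0.58. At 3 h its log2 change under 10 uM isopomiferin was −0.35 ± 0.95, with overlapping groups. FGF21 had no read in any of the 6 DMSO libraries. With 10 uM isopomiferin for 6 h it had 0.145, 0.582 and 0.685 CPM (36 reads over 3 libraries), and with 10 uM pomiferin 0.502, 0.945 and 1.02 CPM (62 reads). Against a floor of 3 reads over the 3 DMSO libraries the group means are at least 12.2-fold and at least 21.3-fold higher. Such bounds, here and below, take the mean of the treated libraries as it is and allow for counting error in the controls only. With 3 uM isopomiferin 11 reads put FGF21 at least 3.95-fold above the same floor, and with 3 uM pomiferin only 2 reads were counted.

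ADM2, the calcitonin family peptide, had 23.2, 28.8 and 29.0 CPM after 10 uM isopomiferin for 6 h and 28.6, 29.9 and 31.3 CPM after 10 uM pomiferin, against 0.855, 0.920 and 1.31 CPM in DMSO. The log2 changes were 4.73 ± 0.26 and 4.87 ± 0.26. At 3 h, 10 uM isopomiferin gave 5.34, 6.04 and 7.96 CPM and 10 uM pomiferin 4.09, 8.45 and 10.4 CPM, against 1.09, 1.59 and 2.63 CPM in DMSO. ADM2 was therefore already above every DMSO library at 3 h with 10 uM of either compound.

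STC2 was the member with the most reads in DMSO, so its change is the most precisely measured. It had 219, 242 and 272 CPM with 10 uM isopomiferin and 260, 265 and 282 CPM with 10 uM pomiferin at 6 h, against 25.8, 29.2 and 31.4 CPM in DMSO. The log2 changes were 3.08 ± 0.12 and 3.22 ± 0.12. At 3 uM and 6 h it had 112, 113 and 118 CPM with isopomiferin and 47.1, 49.6 and 56.6 CPM with pomiferin. At 3 h and 3 uM all 3 isopomiferin libraries (49.3, 56.6 and 63.7 CPM) and all 3 pomiferin libraries (37.0, 38.0 and 43.105 CPM) already lay above the DMSO libraries (26.9, 30.3 and 30.9 CPM).

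**Figure D1:**
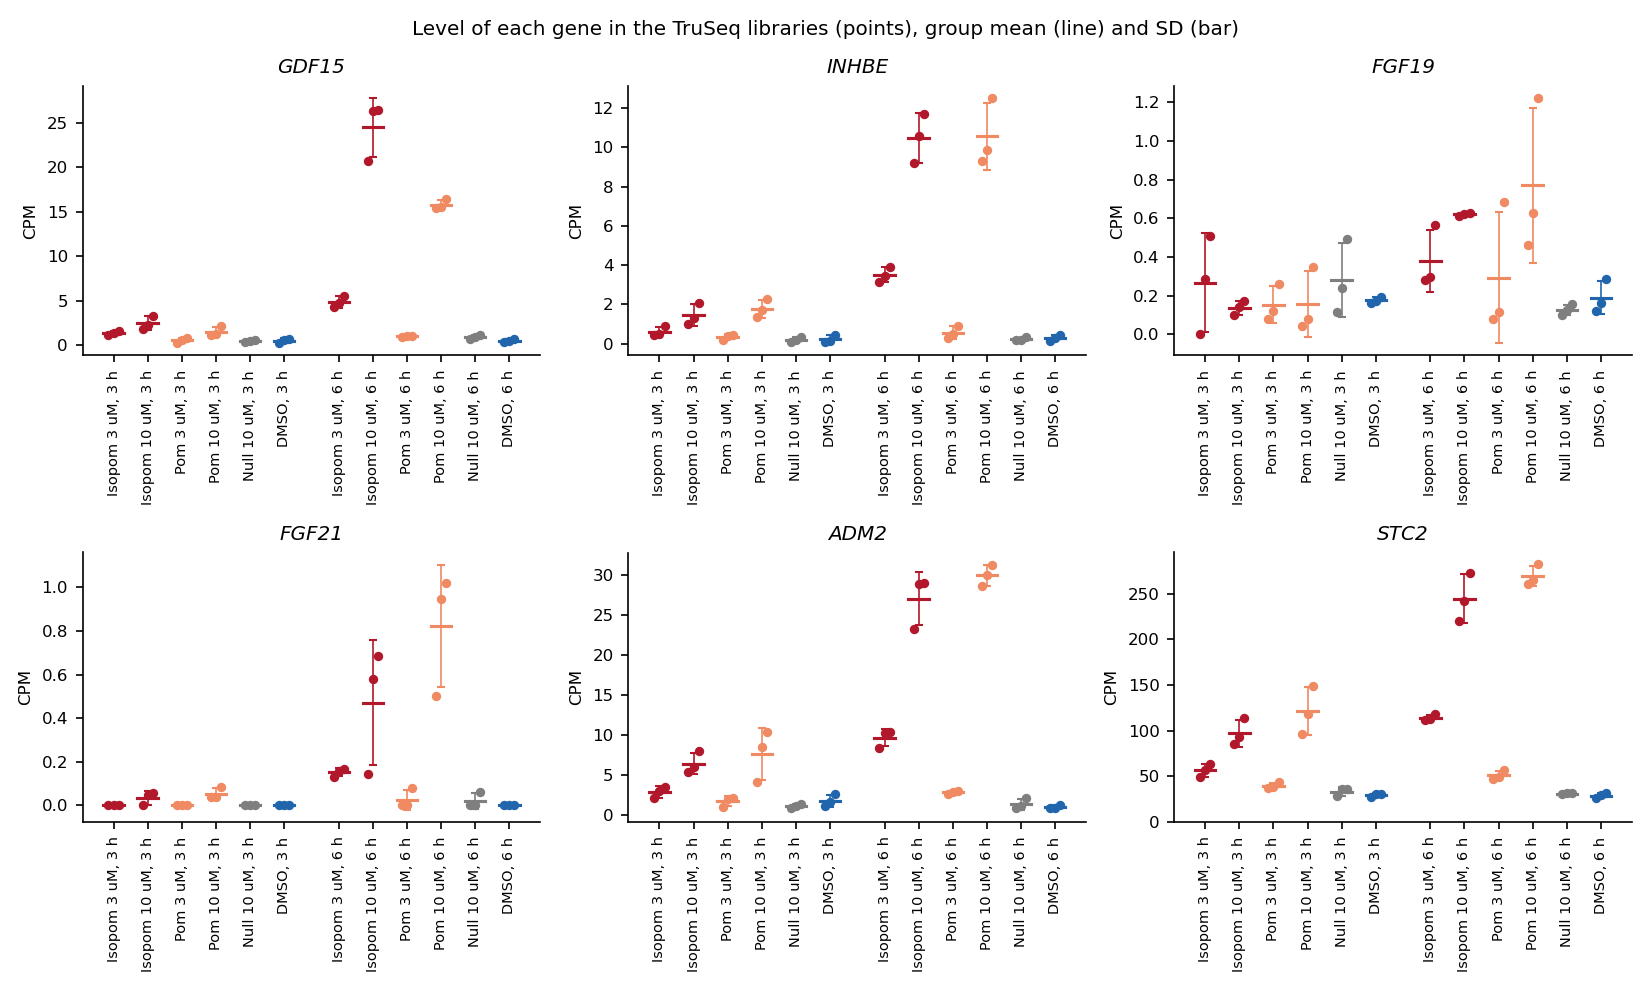
CPM of the 6 genes in each TruSeq library, on linear axes that differ between genes, by treatment and time, with points for libraries, lines for group means and bars for the SD. GDF15, INHBE, ADM2 and STC2 were highest with 10 uM of either isoflavone at 6 h, and FGF21 was at 0 in every DMSO library.

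Isopomiferin and pomiferin are isomeric prenylated isoflavones, isopomiferin having a prenyl side chain of pomiferin closed into a ring. Their levels were compared with each other at matched dose and time, in 4 contrasts and 24 tests over the 6 genes. Of these, 5 were called by edgeR's quasi-likelihood test, all higher with isopomiferin, and 9 had an unadjusted p under 0.05. Over all genes, 0.62% were called at 3 uM and 3 h, 13.2% at 3 uM and 6 h, 2.43% at 10 uM and 3 h, and 12.7% at 10 uM and 6 h. At 3 uM and 6 h, isopomiferin gave more GDF15 than pomiferin by 2.24 ± 0.26 on the log2 scale, INHBE by 2.66 ± 0.34, ADM2 by 1.75 ± 0.27 and STC2 by 1.16 ± 0.12, with edgeR adjusted p of 1.9e-07, 9.4e-07, 1.8e-05 and 1.2e-08. For these 4 genes each isopomiferin library was above each pomiferin library. FGF21 was higher by 2.31 ± 1.13 (11 reads against 2, edgeR adjusted p = 0.19) and FGF19 by 0.41 ± 0.60 (edgeR adjusted p = 0.73), so neither passed. The low-count filter stood at 0.404 CPM, 10 reads in a library of median size. At either time ADM2 and STC2 reached it in all 3 DMSO libraries, GDF15 in 2, INHBE in 1, and FGF19 and FGF21 in none. INHBE, FGF19 and FGF21 thus entered in part through other libraries, the isoflavone ones included, and their tests are a description.

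At 10 uM and 6 h GDF15 alone was called, higher with isopomiferin by 0.65 ± 0.10 (edgeR adjusted p = 2.4e-05), with no overlap between the groups. This call was lost with edgeR's older quasi-likelihood method, at a log2 difference of 0.64. The 95% interval of the isopomiferin minus pomiferin difference ran from −0.27 to 0.27 for INHBE, from −0.41 to 0.13 for ADM2 and from −0.34 to 0.06 for STC2. It was wider for FGF19 (−1.16 to 0.52) and FGF21 (−1.53 to 0.06), which had few reads. At 3 h no member was called at either dose. The nearest was STC2 at 3 uM, higher with isopomiferin by 0.52 ± 0.13 with an edgeR adjusted p of 0.058, while at 10 uM the sign for STC2 was the other way, −0.33 ± 0.11 (edgeR adjusted p = 0.14). The median difference over the 6 genes was 0.70, 1.99, −0.30 and −0.14 in the order 3 uM at 3 h, 3 uM at 6 h, 10 uM at 3 h and 10 uM at 6 h, beside medians over all genes within 0.005 of 0 in size.

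**Figure D2:**
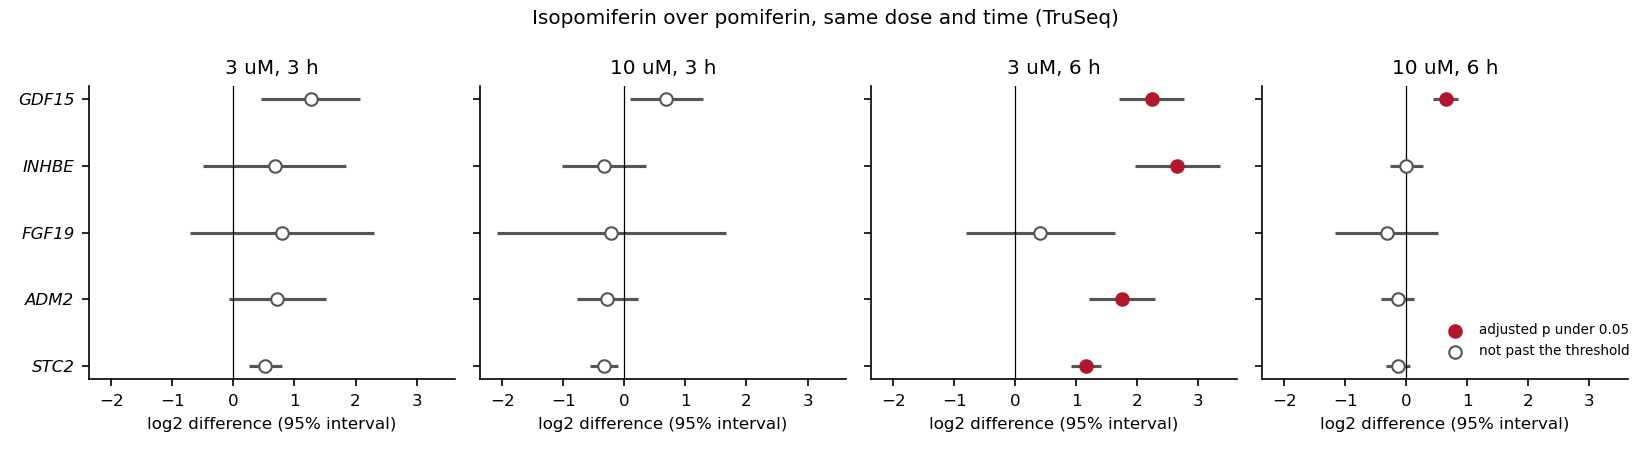
Fitted log2 difference, isopomiferin minus pomiferin, for 5 of the genes at each dose and time in the TruSeq set, with 95% intervals; FGF21 is left out for its few reads. GDF15, INHBE, ADM2 and STC2 lie above 0 at 3 uM and 6 h, and at 10 uM and 6 h GDF15 alone does.

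The treatment labelled Null, given at 10 uM, was set against DMSO of the same time. None of its 12 tests against DMSO was called by edgeR's quasi-likelihood test or by DESeq2, and none had an unadjusted p under 0.05. Over all genes 0.104% were called at 3 h and 0.965% at 6 h. STC2 had 30.2, 31.1 and 31.3 CPM with Null at 6 h, against 25.8, 29.2 and 31.4 CPM in DMSO, and the 95% interval of its log2 change was −0.20 to 0.39. GDF15 had 0.740, 0.894 and 1.18 CPM with Null at 6 h, against 0.392, 0.480 and 0.738 CPM in DMSO. Those 2 groups did not overlap, and the log2 change of 0.82 ± 0.43 had an interval of −0.05 to 1.70 (edgeR adjusted p = 0.48). The intervals of the lower genes were wide: −0.62 to 1.43 for ADM2, −1.84 to 1.13 for INHBE and −2.19 to 1.00 for FGF19 at 6 h, so changes of that size were not detectable at this depth. FGF21 had 2 reads with Null at 6 h and none in DMSO. At 3 h FGF21 had no read with Null or in DMSO, so that test could not have been called. The filter limit given above for INHBE, FGF19 and FGF21 holds here too.

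The third experiment set the isoflavones and their relatives side by side at 24 h. Osajin, which lacks one of the hydroxyl groups of pomiferin, gave the highest mean level of the third experiment for GDF15, INHBE, FGF21 and ADM2. At dose 10 GDF15 had 58.6, 60.5 and 119 CPM with Osajin (13O), against a median of 1.06 CPM in the 9 DMSO wells (lowest 0, highest 1.83), a log2 change of 6.09 ± 0.35. INHBE had 36.6, 39.2 and 42.5 CPM, against a median of 1.11 CPM in DMSO (0 to 2.25), a log2 change of 5.16 ± 0.34. ADM2 had 131, 139 and 150 CPM, against a median of 1.95 CPM in DMSO (0.700 to 3.64). STC2 had 99.0, 102 and 121 CPM, against a median of 15.4 CPM in DMSO (9.75 to 23.5).

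Pomiferin was given at doses of 1, 3.3 and 10. GDF15 had means of 10.8, 20.7 and 60.5 CPM at these doses, and ADM2 means of 30.5, 83.5 and 118 CPM. INHBE did not follow this order: its means were 5.23, 13.1 and 5.68 CPM, the 3.3 dose giving 10.3, 13.6 and 15.5 CPM and the 10 dose 3.64, 5.91 and 7.48 CPM, without overlap. STC2 had means of 57.2, 90.7 and 76.8 CPM. Isopomiferin at doses of 1, 5 and 15 gave GDF15 means of 1.15, 10.5 and 44.3 CPM and ADM2 means of 8.02, 43.5 and 89.6 CPM, and at its lowest dose the GDF15 wells lay within the DMSO range.

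FGF19 divided the isoflavones of the third experiment. It had 23.2, 33.5 and 38.8 CPM with pomiferin at 10 and 26.6, 28.2 and 29.3 CPM with Osajin (13O) at 10, against a median of 0 CPM in DMSO (highest 1.37). Isopomiferin at 15 gave 2.43, 2.72 and 3.44 CPM. Isoosajin at 20 gave 0, 0.496 and 0.530 CPM, within the DMSO range, although the same 3 wells had 59.1, 65.1 and 74.9 CPM of ADM2 and 13.3, 14.4 and 15.3 CPM of GDF15. In this set the 2 compounds named as iso forms had high ADM2 beside low FGF19, while pomiferin and osajin had both high. In the other sets at 24 h isopomiferin did give FGF19, with 22.3, 25.7 and 29.8 CPM in the second experiment and 7.93 and 13.3 CPM in the first. Doses differ between these groups, so no test of the order was made.

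At matched doses, 6 pairs of isoflavones were set side by side in the third experiment, as differences with 95% intervals and without a test. At dose 1, GDF15 was lower with isopomiferin than with pomiferin by a log2 difference of −3.29 (−4.47 to −2.12): 1.00, 1.08 and 1.38 CPM with isopomiferin and 4.50, 8.41 and 19.6 CPM with pomiferin. The genes other than FGF21 had a difference below 0 in this pair, from −1.17 for STC2 to −4.34 for FGF19. FGF21 had no read with isopomiferin and 8 with pomiferin, all 8 in 1 of its 3 wells. In the TruSeq set at 3 uM and 6 h GDF15 lay the other way, higher with isopomiferin, but dose, time and method differ between these sets. Osajin (13O) at 10 differed from pomiferin at 10 for INHBE by 2.77 (1.96 to 3.58) and for FGF21 by 2.65 (0.89 to 4.41), and by 0.37 (−0.32 to 1.06) for GDF15, −0.19 (−0.96 to 0.59) for FGF19 and 0.25 (−0.22 to 0.73) for ADM2.

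The relatives of these compounds gave a wide range. Pom Triacetate at 10, by its name an acetylated pomiferin, differed from pomiferin by −0.16 (−0.63 to 0.32) for ADM2 and 0.01 (−0.42 to 0.43) for STC2, and by −0.93 (−1.72 to −0.14) for FGF19. H-Pomiferin (12P) at 10 gave 27.2, 28.8 and 43.22 CPM of GDF15 and 9.99, 13.8 and 14.6 CPM of FGF19, and differed from pomiferin by −0.87 (−1.58 to −0.15) and −1.32 (−2.15 to −0.50). H-Osajin (12O) at 10 gave 0.500, 1.99 and 2.53 CPM of GDF15, a difference from Osajin (13O) of −5.55 (−6.56 to −4.54), and ADM2 differed by −4.72 (−5.34 to −4.11). All 6 genes were lower with H-Osajin than with osajin, with no overlap between the groups. ADM2 had 54.4, 61.5 and 77.7 CPM with H-Pomiferin and 108, 119 and 126 CPM with pomiferin, so GDF15, FGF19 and ADM2 were all lower with H-Pomiferin without overlap, yet above every DMSO well. ADM2 had 4.25, 5.63 and 5.98 CPM with H-Osajin, also above every DMSO well (highest 3.64 CPM), while GDF15 with H-Osajin overlapped DMSO. The difference between the 2 pairs was not tested. The share of all genes without overlap is not given for these pairs, so the lack of overlap describes the members alone.

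Osajin 4 Methyl ether at 20 gave 0, 0.838 and 1.48 CPM of GDF15 and 1.69, 1.95 and 3.07 CPM of ADM2, both within the DMSO range. Isoosajin at the same dose differed from it by 4.88 (4.19 to 5.57) for ADM2, 4.59 (3.38 to 5.79) for INHBE and 0.13 (−3.21 to 3.46) for FGF19. Of the 2 code-named treatments in this set, 43-19 at 20 had 1.50, 2.22 and 3.36 CPM of ADM2, within the DMSO range, and 43-13 at 20 had 4.96, 5.11 and 7.84 CPM, above it.

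The 15 treatments of the third experiment that are not isoflavones gave 90 tests, of which 28 were called by edgeR's quasi-likelihood test, 27 higher and 1 lower; 34 had an unadjusted p under 0.05. Over all genes and these treatments 3.99% of tests were called higher and 4.33% lower. STC2 alone reached the level of the low-count filter (3.27 CPM, 10 reads in a library of median size) in all 9 DMSO wells; ADM2 did so in 1, and the others in none. Those members were therefore tested because treated wells hold them, so counts that include them, and their adjusted p below, are a description and no support. Without the filter 24 of 90 tests were called. ADM2 rose with 11 of 15 treatments and STC2 with 11 of 15, both together in 10. GDF15 rose with 4, INHBE with 1, and FGF19 and FGF21 with none; no test of FGF19 or FGF21 had an unadjusted p under 0.05, and both had few reads in these wells.

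GDF15 was called with 4 kinase inhibitors. NVP-BEZ-235 at 0.6, an inhibitor of PI3K and mTOR, gave GDF15 levels of 11.04, 12.2 and 16.7 CPM against a DMSO median of 1.06 CPM, a log2 change of 3.55 ± 0.46 (edgeR adjusted p = 2.3e-09), beside rises of 1.31 ± 0.37 in ADM2 and 1.15 ± 0.19 in STC2. In that contrast 7.09% of all genes were called higher. Palbociclib at 10, a CDK4 and CDK6 inhibitor, raised GDF15 by 2.55 ± 0.53, ADM2 by 2.37 ± 0.30 and STC2 by 1.71 ± 0.18 (3.98% of all genes higher). PF-47776 at 1.6 raised GDF15 by 2.33 ± 0.61, ADM2 by 2.53 ± 0.32 and STC2 by 1.17 ± 0.20 (5.11%). Copanlisib at 2, a PI3K inhibitor, raised GDF15 by 2.096 ± 0.66, ADM2 by 1.23 ± 0.42 and STC2 by 0.69 ± 0.21 (3.99%), and its ADM2 and STC2 wells overlapped DMSO. These 4 treatments raised the same 3 of the 6 genes. The copanlisib calls were the least firm: ADM2 was no longer called without any 1 of the 3 replicate numbers (log2 changes of 1.06 to 1.56), GDF15 without replicate 1 or 2 (1.77 and 1.88) and STC2 without replicate 1 or 3 (0.67 and 0.53). The GDF15 call was also lost for palbociclib without replicate 3 (1.97) and for PF-47776 without replicate 2 or 3 (2.34 and 2.04), and the ADM2 call for NVP-BEZ-235 without replicate 2 (0.91). Alisertib at 5, an Aurora A kinase inhibitor, was not called for GDF15 (1.44, 4.05 and 6.56 CPM, log2 change 1.74 ± 0.62, edgeR adjusted p = 0.12), though its wells lay close to those of copanlisib (1.94, 6.02 and 6.53 CPM). Treatments were not tested against each other.

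CX-4945, an inhibitor of casein kinase 2, was called for ADM2 and STC2 and not for GDF15. At 10 it raised ADM2 to 24.2, 31.0 and 38.9 CPM, against a DMSO median of 1.95 CPM (log2 change 3.73 ± 0.25, edgeR adjusted p = 5.5e-20), and STC2 to 119, 137 and 151 CPM, against a DMSO median of 15.4 CPM (3.103 ± 0.16). GDF15 had 0, 0.307 and 3.36 CPM, with an interval of −1.54 to 1.68 for its log2 change, in a contrast with 8.05% of all genes called higher. CX +Bafetinib, with 5 uM of each, raised ADM2 by 3.97 ± 0.25, STC2 by 2.68 ± 0.17 and INHBE by 2.101 ± 0.52 (4.94% of all genes higher), the only INHBE call among these 15 treatments. CX+masatinib, with 5 uM of each, raised ADM2 by 3.67 ± 0.26 and STC2 by 2.27 ± 0.17 (3.95%). Alisertib raised ADM2 by 1.62 ± 0.34 and STC2 by 0.95 ± 0.19 (1.4%). Without replicate 3 the ADM2 call of alisertib was lost (1.28), without replicate 1 its STC2 call (0.81) and the INHBE call of CX +Bafetinib (1.70). The 1 fall was STC2 with JQ1 at 10, a BET bromodomain inhibitor: 3.06, 5.54 and 7.54 CPM, against a DMSO median of 15.4 CPM, a log2 change of −1.57 ± 0.27 (edgeR adjusted p = 8e-06).

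In the second experiment 6 h and 24 h were measured for the same doses. GDF15 had between 0 and 2 reads in every library, those with isopomiferin included, although these libraries had up to 1901420 reads, and why was not tested; in the first experiment isopomiferin gave 238 and 19 reads of GDF15. GDF15 and FGF21 were not among the genes tested there. Isopomiferin at 10 mM by its label gave INHBE levels of 10.0, 10.6 and 25.4 CPM at 6 h, against a control median of 0.483 CPM, and ADM2 levels of 88.9, 89.6 and 104 CPM against 3.06 CPM. At 24 h the same dose gave 266, 270 and 279 CPM of ADM2, against a control median of 1.97 CPM, and 22.3, 25.7 and 29.8 CPM of FGF19, against a median of 0 CPM. FGF19 with isopomiferin at 6 h had 0, 1.59 and 5.00 CPM (9 reads), against 10 reads over the 6 controls, 8 of them in 1 control at 4.73 CPM and the others at 0 to 1.21 CPM. FGF19 was not tested at 6 h, and the groups overlapped.

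The 14 other compounds gave 196 tests of the members kept, of which 49 were called by edgeR's quasi-likelihood test, all higher. At 6 h 12 of 84 tests passed, beside 0.401% of all tests called higher and 0.131% called lower over all genes. At 24 h 37 of 112 passed, beside 2.14% higher and 1.82% lower. ADM2 and STC2 each rose with 17 of 56 treatments, INHBE with 10 of 56 and FGF19 with 5 of the 28 tested at 24 h. Only STC2 reached the filter level (7.26 CPM at 6 h, 7.92 CPM at 24 h) in control wells, in all 6 at each time, and FGF19 had 1 read over the 6 controls at 24 h, so here too the counts with the other members describe genes that entered through treated wells. The adjusted p of these other members are likewise a description. Without the filter 50 of 336 tests were called. INHBE rose in no treatment without ADM2 and STC2: its 10 are 58.8% of the 17 for each. All 5 FGF19 rises were in treatments that also raised INHBE, ADM2 and STC2. They are 5 of the 9 INHBE rises at 24 h, the only time at which FGF19 was tested.

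NSC305798 at 5 mM raised all 4 members tested at 24 h, where 4.76% of all genes were called higher. FGF19 had 32.8, 40.2 and 59.0 CPM with NSC305798, against a control median of 0 CPM and a highest control of 0.548 CPM, ADM2 had 231, 254 and 301 CPM against a median of 1.97 CPM, and INHBE and STC2 changed by 5.23 ± 0.52 and 3.29 ± 0.24 on the log2 scale. At 6 h (0.628% of all genes higher) it had already raised INHBE by 3.95 ± 0.77, ADM2 by 4.77 ± 0.43 and STC2 by 2.12 ± 0.25, of which the INHBE call was lost without replicate 1 (3.76). Podofilox, which blocks the assembly of tubulin, raised the same 4 at both doses at 24 h. FGF19 had 31.4, 40.3 and 47.3 CPM with 1 mM (6.75% of all genes higher) and 26.4, 39.3 and 42.1 CPM with 0.33 mM (6.74%), and ADM2 changed by 6.21 ± 0.37 and 6.25 ± 0.37. INHBE had 13.6, 26.9 and 55.9 CPM with 1 mM and 14.03, 14.5 and 16.0 CPM with 0.33 mM, and the doses were not tested against each other.

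Narasin at 1 mM, a polyether ionophore, raised FGF19 by 6.00 ± 1.14, INHBE by 4.84 ± 0.57, ADM2 by 5.51 ± 0.40 and STC2 by 2.99 ± 0.25 at 24 h (6.07% of all genes higher). Its FGF21 reads numbered 11, a mean at least 10.2-fold above a floor of 3 reads over the 6 controls. They were spread unevenly over the wells, with 8, 2 and 1 reads (6.56, 1.54 and 0.993 CPM). Cloxyquin at 5 mM, a chlorinated hydroxyquinoline, raised FGF19 by 5.47 ± 1.19, INHBE by 4.59 ± 0.56, ADM2 by 5.43 ± 0.39 and STC2 by 2.12 ± 0.26 in a contrast with only 1.38% of all genes called higher. Methylene Blue at 2 mM raised INHBE by 3.51 ± 0.68, ADM2 by 4.19 ± 0.46 and STC2 by 1.58 ± 0.28, where 0.407% of all genes were called higher. These 3 are 3 of the 47 genes called higher with Methylene Blue. NSC3905 at 3 mM raised INHBE by 2.40 ± 0.83, ADM2 by 2.96 ± 0.55 and STC2 by 2.33 ± 0.26 at 24 h (6.55%). The INHBE call of NSC3905 was lost without any 1 of the 3 replicate numbers (2.05 to 3.04), and that of Methylene Blue without replicate 1 or 3 (2.57 and 3.42). The STC2 call of Methylene Blue was lost without replicate 1 (1.41) and the FGF19 call of Cloxyquin without replicate 2 (5.11).

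Levels at 6 h and at 24 h lay apart for some compounds, named here after their values were seen. NSC255109 at 2.5 mM gave ADM2 levels of 32.1, 43.8 and 69.2 CPM at 6 h, against a control median of 3.06 CPM (log2 change 4.22 ± 0.46, edgeR adjusted p = 2e-12). At 24 h it gave 0, 0 and 5.14 CPM, against a control median of 1.97 CPM (−0.40 ± 1.15, edgeR adjusted p = 0.86). STC2 with NSC3905 at 3 mM was already at 315, 321 and 321 CPM at 6 h, against a control median of 27.0 CPM, and had 123, 138 and 142 CPM at 24 h, against a control median of 30.1 CPM. The difference between the times was not tested, since the 2 times were fitted apart.

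**Figure D3:**
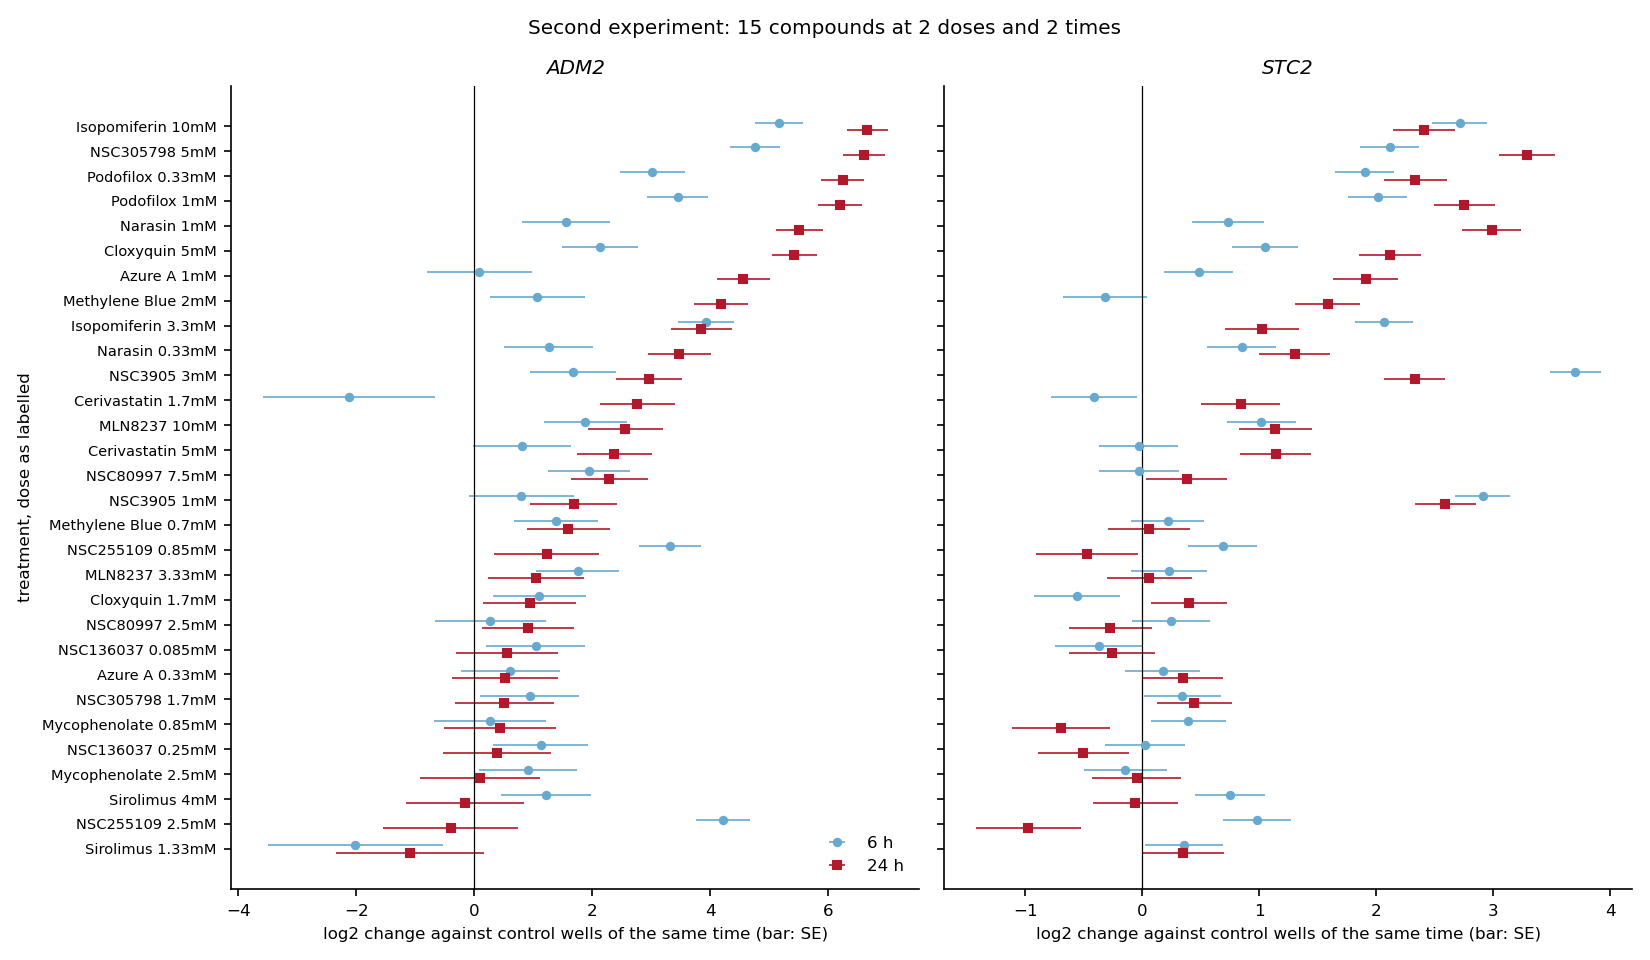
Fitted log2 change of ADM2 (left) and STC2 (right) against the controls of the same time in the second experiment, 6 h beside 24 h, for 15 compounds at 2 doses; bars are SE. ADM2 with both doses of isopomiferin and of Podofilox and with NSC305798 at 5 mM was high at both times; with NSC305798 at 1.7 mM it overlapped the controls.

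The first experiment was the broadest, with 89 compounds besides isopomiferin. GDF15, FGF19 and FGF21 had 0 reads in all 8 DMSO wells. A fold against DMSO can therefore only be given as a bound, for the mean of the treated wells against a floor of 3 reads over the 8 wells. STC2 alone reached the filter level of 5.58 CPM in DMSO wells, in all 8. GDF15 and FGF19, and also INHBE (9 reads over the DMSO wells) and ADM2 (39 reads), entered the tests through treated wells, and FGF21 did not enter them. Isopomiferin at 15 had GDF15 levels of 105 and 19.4 CPM on the 2 plates, with a mean at least 353-fold above that floor. Its ADM2 levels were 241 and 366 CPM, against a DMSO median of 1.93 CPM. Of 445 tests with the other compounds, 101 were called by edgeR's quasi-likelihood test, 100 higher and 1 lower, beside 1.63% of tests over all genes called higher and 1.4% lower. Without plate 1 the count was 49, and without plate 2 it was 59. With relative log expression factors in place of TMM it was 104, and 67.5% of the calls over all genes were then higher, against 53.9% with TMM. ADM2 rose with 36 of 89 compounds, STC2 with 25, GDF15 with 21, INHBE with 13 and FGF19 with 5. The GDF15 call of daunorubicin at 3 rests on 1 and 2 reads in its wells. The counts and adjusted p other than those of STC2 are descriptions of genes chosen by their treated wells. Without the filter 98 of 534 tests were called. No member rose with 50 of the 89 compounds, and 3 compounds raised all 5 members tested. The 1 fall was STC2 with NSC255109 at 7.5, with 3.36 and 4.36 CPM against a DMSO median of 21.7 CPM (log2 change −2.33 ± 0.57, edgeR adjusted p = 0.002). No member was called between the wells without DMSO and the DMSO wells (0.0521% of all genes were called), with STC2 at 10.5, 26.2, 27.8 and 30.1 CPM.

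Calls of the members nested in part. All 13 compounds that raised INHBE also raised ADM2 and STC2, which is 36.1% of the 36 ADM2 rises and 52% of the 25 STC2 rises. Of the 21 that raised GDF15, 20 raised ADM2 (95.2% of the GDF15 rises, 55.6% of the ADM2 rises) and 16 raised STC2. ADM2 and STC2 rose together with 22 compounds, 61.1% of the ADM2 rises and 88% of the STC2 rises. These counts describe treatments that share their DMSO wells and members that entered the tests through treated wells, and they support nothing further.

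Cetylpyridinium chloride at 2, a quaternary ammonium antiseptic, raised all 5 members in a contrast with 1.3% of all genes called higher. GDF15 had 57.0 and 27.1 CPM, at least 239-fold above the floor, and FGF19 had 17.9 and 11.1 CPM, at least 82.3-fold. INHBE had 40.2 and 40.6 CPM, against a DMSO median of 0 CPM (highest 2.44), a log2 change of 6.05 ± 0.56 (edgeR adjusted p = 2.2e-17). Gramicidin at 3, a peptide antibiotic that forms ion channels, also raised all 5 (2.89% of all genes higher): GDF15 had 74.7 and 23.8 CPM, at least 280-fold above the floor, and STC2 had 263 and 185 CPM, a log2 change of 3.51 ± 0.25. It also had 9 reads of FGF21 in its 2 wells, 7 on plate 1 and 2 on plate 2, with a mean at least 18.8-fold above the floor. Podofilox at 2 was the other compound that raised all 5 (4.09%), with GDF15 at 26.5 and 12.9 CPM, FGF19 at 3.31 and 14.8 CPM and ADM2 at 175 and 227 CPM. The FGF19 call was lost without plate 1 for cetylpyridinium chloride and gramicidin, and without plate 2 for podofilox.

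GDF15, INHBE, ADM2 and STC2 rose together with 8 further compounds. Chloroxine at 15, a chlorinated hydroxyquinoline (1.53% of all genes higher), gave GDF15 levels of 65.7 and 14.9 CPM, at least 229-fold above the floor, and changed INHBE by 6.30 ± 0.50. Oxyquinoline hemisulfate at 3, the parent hydroxyquinoline (1.03%), gave GDF15 levels of 15.6 and 5.24 CPM, at least 59.1-fold, and changed INHBE by 5.29 ± 0.61 and ADM2 by 5.46 ± 0.39. Artenimol at 15, the active form of the artemisinin antimalarials (1.22%), gave GDF15 levels of 15.8 and 5.77 CPM and changed ADM2 by 6.13 ± 0.38. Artesunate at 15, a prodrug of artenimol (1.18%), gave 7.10 and 1.33 CPM and changed ADM2 by 6.09 ± 0.36. Ivermectin at 10, an antiparasitic macrocyclic lactone (1.27%), gave 8.99 and 7.80 CPM and the largest INHBE change of the 89 compounds, 6.64 ± 0.51. The other 3 were broxaldine at 5, nitroxoline at 7.5 and tioguanine at 1. The GDF15 call was lost without plate 1 for artenimol and oxyquinoline, and without either plate for artesunate and ivermectin.

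NSC305798 at 5 was in the first experiment too, and is named here after its values were seen. INHBE had 0 reads in both of its wells, ADM2 was at 5.76 and 1.99 CPM (edgeR adjusted p = 0.90) and STC2 at 28.3 and 21.9 CPM (edgeR adjusted p = 0.87), so no member was called with this label, which raised 4 members in the second experiment at 5 mM and 24 h. The 2 labels give the same number, 1 of them without a unit, and whether the wells held the same dose was not tested. Cloxyquin at 5 also differed: INHBE, FGF19 and STC2 were called at 5 mM and 24 h in the second experiment and not in the first. Narasin was called for INHBE and FGF19 at 1 mM and 24 h, and for neither at 3 in the first. Podofilox raised FGF19, INHBE, ADM2 and STC2 in both experiments. Other shared compounds were not gone through here.

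The hydroxyquinolines are a family within the plates, gathered here after their values were seen: GDF15 and ADM2 rose with all 6 of chloroxine, oxyquinoline hemisulfate, broxaldine, nitroxoline, benzoxiquine and cloxyquin. GDF15 was at 57.8 and 5.77 CPM with nitroxoline at 7.5, at 10.2 and 1.54 CPM with benzoxiquine at 7.5, at 6.99 and 0.788 CPM with broxaldine at 5 and at 17.6 and 2.60 CPM with cloxyquin at 5. INHBE was called in the first 4 and not with benzoxiquine (3.92 and 2.70 CPM) or cloxyquin (2.01 and 0.433 CPM). Doses differ within the family, and no pair of them was compared. GDF15 and ADM2 entered the tests through treated wells, so these calls are a description. On plate 2 GDF15 had 24 reads with chloroxine, 7 with oxyquinoline, 2 with broxaldine, 9 with nitroxoline, 4 with benzoxiquine and 6 with cloxyquin. Shares of all genes called higher are given above for chloroxine and oxyquinoline only, beside 1.63% of tests over the 89 compounds.

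The plates differed for GDF15. Among the 21 compounds that raised GDF15, its level was higher on plate 1 than on plate 2 with 20, with medians of 7.10 CPM on plate 1 and 2.60 CPM on plate 2, while DMSO wells were at 0 on both. The exception was daunorubicin at 3, with 1 read on plate 1 and 2 on plate 2, where its library held 398811 reads. ADM2 lay the other way: among its 36 rises, 28 were higher on plate 2, with medians of 18.2 CPM on plate 1 and 25.1 CPM on plate 2.

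**Figure D4:**
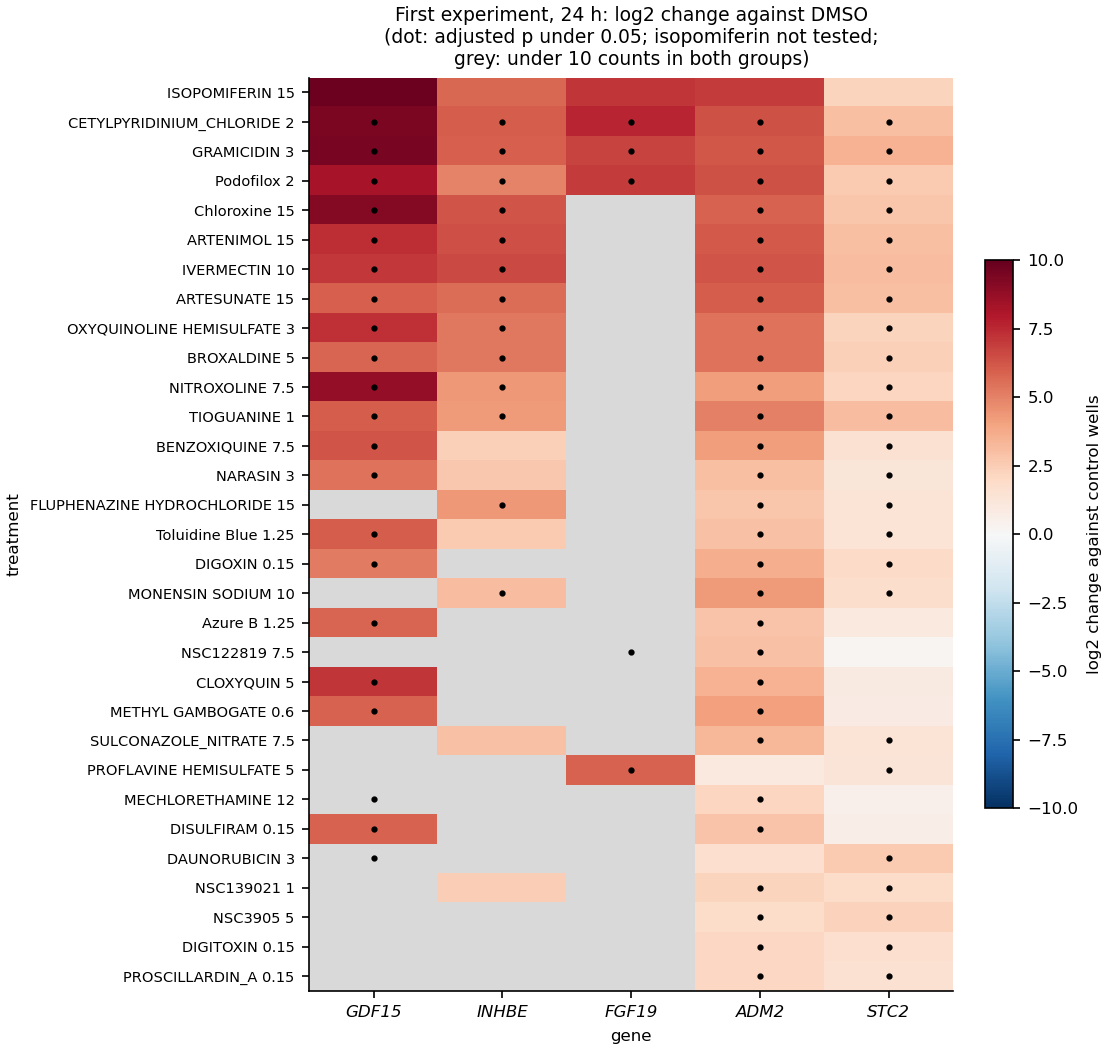
Fitted log2 change of GDF15, INHBE, FGF19, ADM2 and STC2 against DMSO in the first experiment for isopomiferin and the compounds that raised at least 2 of them; dots mark calls, and grey cells have under 10 reads in both groups. The values of GDF15 and FGF19 are set against DMSO wells without reads, so they depend on the prior count of the fit and are no bounds. ADM2 and STC2 are high over most of the compounds shown, and FGF19 in few.

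Genes of the same pathways were taken from lists of receptors, relatives and upstream regulators in the TruSeq set. With isopomiferin at 10 uM and 6 h, where 13.4% of all genes were called higher and 11.9% lower, 14 of 18 stress regulators were higher and none lower. TRIB3, a pseudokinase induced by ATF4, was at 148 CPM with isopomiferin and 9.70 CPM in DMSO, and DDIT3, which encodes CHOP, at 78.5 and 5.48 CPM, log2 changes of 3.93 ± 0.12 and 3.83 ± 0.13. ATF3 changed by 3.33 ± 0.20 and ATF4 itself by 1.57 ± 0.06. The median change of the 18 regulators was 1.43, beside −0.005 over all genes. This contrast was the one the members were picked on, so the regulators' counts are a description. Of the 8 neuroblast markers, 4 were lower and 1 higher in this contrast, and what part this has in the changes was not tested.

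The receptors through which these factors act did not share that direction. Of 17 receptors listed, 14 were measured, 3 higher and 4 lower with isopomiferin at 10 uM and 6 h. RET, part of the GDF15 receptor, was at 442 CPM with isopomiferin and 407 CPM in DMSO, a log2 change of 0.12 ± 0.04, while GFRAL did not reach the count filter. FGFR2 changed by −0.89 ± 0.10, FGFR3 by −1.69 ± 0.58 and ACVR1C by −2.03 ± 0.69. FGFR3 had a DMSO mean of 1.94 CPM and ACVR1C one of 0.579 CPM. The relatives gave 1 higher and 3 lower of 9 measured: FSTL3, an activin antagonist, changed by 0.59 ± 0.14, ADM, the nearest relative of ADM2, by −0.83 ± 0.17, STC1, the paralog of STC2, by −0.55 ± 0.08, and GDF11 by −0.42 ± 0.08. With Null at 6 h none of the 14 receptors, 9 relatives or 18 regulators was called. ACVR1C nevertheless changed by −1.75 ± 0.61 with Null (mean 0.175 CPM) and FSTL3 by 0.37 ± 0.14, each in the direction seen with isopomiferin. FGFR2 changed by −0.11 ± 0.09 and FGFR3 by 0.49 ± 0.38. The lack of a call thus does not set Null apart from isopomiferin for ACVR1C and FSTL3.

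Likeness was measured by Pearson's r between group means of log2 CPM over the 13 TruSeq groups, among 11036 genes with a group mean of at least 5 CPM. The groups share libraries of the same 2 compounds, so these values are a description. STC2 was most like VEGFA (0.996), PMAIP1 (0.989) and SESN2 (0.988). ADM2 was most like VEGFA (0.989), CCDC71L and ATF4 (0.986 each). Among the genes most like GDF15 were IRF2BPL (0.977) and TRIB3, and INHBE was most like PCK2 (0.984), BBC3 (0.983) and TRIB3 (0.982). FGF21 was most like ASNS (0.991), TARS1 (0.989) and ETV5 (0.986), and FGF19 was most like OGFOD1 (0.965), PACSIN2 (0.929) and SMIM29 (0.925). Over the 30 groups of the third experiment the pairs were less alike, from 0.0545 for GDF15 with IRF2BPL to 0.911 for INHBE with TRIB3. VEGFA gave 0.905 with ADM2 and 0.717 with STC2, and TRIB3 gave 0.858 with GDF15. ADM2 with CCDC71L gave 0.503, STC2 with PMAIP1 0.491, FGF19 with PACSIN2 0.487 and with OGFOD1 0.572, and the FGF21 pairs 0.693 to 0.776. The TruSeq values of FGF21 rest on at most 62 reads in a group.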

How the data were processed

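The deposited values are counts, whole numbers per gene symbol whose totals differ between libraries, in 4 tables of the authors. Per the submitters' processing notes, reads were aligned with STAR to GRCh38, without versions; the counter, the annotation, the filters and any use of strand or of molecular identifiers are not given in the sources used here. The 92 spike-in rows of the first experiment were left out, and no 2 columns of a table were identical.

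Genes were kept by filterByExpr (minimum count 10): 15329 in the TruSeq set, 11460 and 11539 in the second experiment at 6 h and 24 h, 13438 in the first and 15596 in the third experiment. The filter kept all 6 members in the TruSeq set and the third experiment, INHBE, ADM2 and STC2 in the second with FGF19 at 24 h, and all but FGF21 in the first. Counts were scaled by TMM and fitted with edgeR 4.0.16 (glmQLFit, glmQLFTest, two-sided) in R 4.3.3, all groups of a set in 1 fit, with Benjamini-Hochberg adjustment over all genes of a contrast at 0.05. CPM uses the scaled library sizes, the SE is the log2 change divided by the square root of F, and intervals are 95%. Intervals cover the spread between wells. Bounds against 0 counts cover the counting error of the controls only, and not that of the treated wells.

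The plate was a block in the first experiment: residuals of libraries on the same plate correlated with a median r of 0.531 (−0.0668 to 0.746). In the other sets replicate numbers were not taken to pair wells. Treatments were described one by one where at least 2 members passed, up to 8 per experiment, by number of members passed and then mean log2 change. The members, lists, tests and rules were chosen with earlier results of these data known. The procedure was tested on simulated data: of 197 genes changed 4-fold among 15030, 178 were found in the Null contrast at 6 h, with 10 false calls. In 1 contrast of each plate set it found fewer: 148 of 190 in the third and 110 of 186 in the first. In the second it found 142 of 195 at 6 h and 132 of 195 at 24 h. False calls there were 9 to 12. The changed genes were drawn at random, at their mean rates over all libraries and without a plate effect. These shares therefore do not describe members with few or no reads in controls. DESeq2 1.42.0 and other settings were alternatives. One gene among those most like GDF15 is not reported here.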

Additional observations from a re-analysis of the deposited data

Results flagged for a closer look

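Control wells of the plates held single wells that stood apart from the rest of their group. FGF19 was at 4.73 CPM (8 reads) in 1 of 6 control wells of the second experiment at 6 h, against 0 to 1.21 CPM in the others. INHBE was at 5.91 CPM (9 reads) in 1 of 6 control wells at 24 h, against 0 to 2.19 CPM in the others, and FGF19 was at 0.548 CPM (1 read) in another, with 0 in the other 5. FGF19 was at 1.37 CPM (6 reads) in 1 of 9 DMSO wells of the third experiment, against 0 to 0.389 CPM in the others. FGF19 was also at 0.386 CPM (1 read) in 1 of 4 wells without DMSO in the first experiment, with 0 in the other 3. Chance alone marks about 1 in 20 groups in this way, 21 group and gene pairs were looked at, and 2 of these 5 values rest on 1 read.

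The Mock libraries of the TruSeq set entered no comparison, since their time labels conflict. GDF15 averaged 1.13 CPM in them (0.840, 0.862 and 1.70 CPM), above the highest of the 6 DMSO libraries (0.286 to 0.738 CPM), while STC2 was at 28.7, 33.5 and 35.0 CPM.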

How the results depend on the processing

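The Null treatment had 0 of 12 tests called under every setting run, but the FGF21 test at 3 h had no read in either group. For isopomiferin against pomiferin in the TruSeq set, 5 of 24 tests were called with TMM, with relative log expression (RLE) factors, without the low-count filter, with the older quasi-likelihood method and without any 1 replicate number, 7 with DESeq2 and 6 with a replicate block. For the other compounds of the second experiment the count was 49 of 196, and 47 to 50 under these settings (49 with a replicate block), but 36 to 42 without 1 replicate number. In the third it was 28 of 90, and 24 to 30 (25 with a replicate block), with 20 to 24 without 1 replicate number. In the first, where the plate is the block, it was 101 of 445: 104 with RLE factors, 98 without the filter, 78 with no replicate block, and 49 to 59 with 1 plate left out, where each compound has 1 well that is assumed to vary like the others. It was 99 of 430 without the treatments that have a library under 500000 reads, an alternative chosen after seeing the data. DESeq2 and the older quasi-likelihood method were not run on the first experiment. Outside the first experiment, residuals of libraries with equal replicate numbers correlated with median r of −0.00177 (TruSeq), −0.000615 and 0.000651 (the second at 6 h and 24 h) and 0.00449 (the third), so the samples share only a number. No called value turned its direction under any setting run. Of the values of named treatments under alternatives, 1071 stayed on their side of the threshold, 42 lost it and 7 gained it; the cause was not tested. Of the isoflavone changes, 769 of the values under alternatives moved by less than 1 SD of the wells and 49 by more.

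Counts over all genes moved more. In the first experiment 19547 tests were higher and 16730 lower with TMM, 10481 and 8509 with no replicate block, 5953 and 2968 without plate 1, and 8956 and 5894 without plate 2. In the second at 6 h 1286 were higher and 419 lower, against 1060 and 661 with DESeq2 and 694 and 163 at the fewest without 1 replicate number. At 24 h 6910 were higher and 5871 lower, against 3910 and 2783 at the fewest. In the third 9325 were higher and 10134 lower, against 6020 and 5494 at the fewest. RLE factors moved the median of all genes by over 0.1 on the log2 scale in 16 contrasts of the first experiment, by up to 0.413 (daunorubicin), and in 1 of the third, by 0.196 (flavopiridol). Few reads limit the precision for FGF21 in all sets and for FGF19 and INHBE in controls. The cause of the missing GDF15 reads in the second experiment was not tested.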
